A study of Mus musculus with 6 samples.

Results

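The mitochondrial ribosomal protein genes were described in RNA bound to polysomes of a clone of mouse T-ALL cells (T-cell acute lymphoblastic leukaemia), with and without 4EGI-1. Members were all gene symbols made of Mrpl (large subunit) or Mrps (small subunit) with a number, and for a few a further letter. There were 77 such genes among the 19937 genes measured, 48 of them Mrpl and 29 Mrps. They were read by 85 probe sets. A further gene of this name, Mrpl53, shared its only probe set with Ccdc142 and was not counted.

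Mitochondria carry a ribosome of their own, which translates the few mRNAs of the mitochondrial genome into core parts of the complexes of oxidative phosphorylation. All of its proteins are encoded in the nucleus, translated in the cytosol and imported. The mRNAs described here are therefore products of nuclear genes on cytosolic ribosomes. Some of the proteins have a counterpart in the bacterial ribosome, and others do not.

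The cells were of clone #483, of C57BL6 background, and both groups came from this single clone. One group of 3 samples is titled untreated. The other 3 samples were treated with 100 µM 4EGI-1, an inhibitor that keeps eIF4E, which binds the mRNA cap, from joining its scaffold eIF4G, and incubation lasted 2 h. The protocol names the solvent DMSO for the control cells, so it is not settled whether the samples titled untreated received it. The treatment of the mice or cells from which the clone arose is not given in the sources used here. RNA of the pooled polysome fractions of a sucrose gradient was hybridised to 1 array per sample, and the question was how 4EGI-1 changed the polysome-bound amount of each mRNA. Only polysomal RNA was used here. Fewer copies of an mRNA in the cells and fewer of its copies on polysomes therefore cannot be told apart, nor can fewer cells of a type and less RNA per cell.

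Values are log2 signals, so a difference of -1 is a halving. Median signal per array was 6.38 to 6.43 over all 34760 probe sets. Precision is limited by there being 3 arrays a group. Of 8 T-lineage markers, 7 were measured, with untreated means of 6.90 (Cd5) to 12.47 (Thy1), all above the median of the table. Of these 7, Cd3e (-0.41) and Cd3d (-0.40) fell, Ptprc (0.24) and Notch1 (0.32) rose, and 3 did not pass. Of 10 markers of B, myeloid, red, stromal and endothelial cells, 7 were measured. Their lowest untreated mean was 4.33 (Ms4a1), 3 were above the median, and the highest, Pecam1, was at 8.96 to 9.03 in the untreated arrays. Their adjusted p-values in limma between the groups were 0.185 (Pecam1) to 0.673 (Itgam).

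The promoters of the members give a first view of what they share. RefSeq promoter windows of assembly GRCm38.p6, from 250 bases before to 50 bases from the annotated start on, were at hand for 68 of the 77 members. The letters CCGGAAG, a core bound by ETS-family factors, were searched on both strands. They occurred in the windows of 25 members (36.8%), against 8.86% of all 32851 windows. Counted by gene, as for the members, the share was 13.6% of the 15613 tested genes with a window. It was 20.6% of the 8889 brighter genes, those of the 15613 whose mean signal reached the table's median. Median GC content was 58.5% in the members' windows, 52.7% in all windows and 60.7% in the windows of the brighter genes. In 19 of the 25 members the site nearest the start lay within 50 bases of it. The stretches below show that site, in capitals, for members described later, on the coding strand and 5′ to 3′. They lie at chr7:28741802-28741831 (minus strand) for Mrps12, chr3:95871478-95871507 (minus) for Mrps21, chr6:125192099-125192128 (plus) for Mrpl51, chr2:130563732-130563761 (plus) for Mrps26, chr9:98601672-98601701 (minus) for Mrps22 and chr14:57826232-57826261 (plus) for Mrpl57. The first 4 genes fell after 4EGI-1 and the last 2 did not.
Mrps12: aaggaggaaccCCGGAAGgggctggaggta
Mrps21: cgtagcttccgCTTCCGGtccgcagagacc
Mrpl51: caggggctaaaCCGGAAGtatttgactgga
Mrps26: ctccgcggccaCTTCCGGgccgggcgcagg
Mrps22: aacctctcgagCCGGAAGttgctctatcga
Mrpl57: ccccagagagaCCGGAAGcagcgcgccgcc

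A second set of letters, searched on the coding strand, is the core of the TISU element, printed in capitals below. TISU is a start-codon context known from mRNAs with very short leaders, among them mRNAs of mitochondrial proteins. It was found in 4 of the 68 members (5.88%), against 0.615% of all windows, 1.13% of the tested genes with a window and 1.89% of the brighter genes. It holds an ATG. The stretches lie at chr4:107066821-107066850 (minus strand) for Mrpl37, chr6:71823742-71823771 (minus) for Mrpl35, chr17:46111005-46111034 (plus) for Mrps18a and chr13:99344790-99344819 (plus) for Mrps27. The element began 12 to 27 bases from the annotated start, counting the start as 1.
Mrpl37: tgcacgggcaAAGATGGCGGcgtccaggta
Mrpl35: ggcaggctgcAAGATGGCGGcttccatctt
Mrps18a: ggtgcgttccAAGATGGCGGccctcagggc
Mrps27: ggtgcgctccAAGATGGCGGctcccatggt

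After 4EGI-1 the members were mostly lower on polysomes, in both subunits. At an adjusted p under 0.05 in limma, 43 of 77 fell, 2 rose and 32 did not pass. Of all genes tested 22.9% were called, 2287 of 19937 lower and 2286 higher, or 11.5% in either direction. All members lay at or above percentile 70.3 of control signal. Among the 11028 genes that reached the table's median signal, 18.9% were lower and 17.3% higher. The share of members that fell was 55.8%. Their median log2 difference (4EGI-1 minus untreated) was -0.29, with quartiles of -0.47 and -0.13, beside -0.03 over all genes.

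The decrease was present in each treated array. Relative to the untreated mean of each member, the median member stood at -0.28, -0.27 and -0.27 in the 3 arrays with 4EGI-1 and between -0.02 and 0.02 in the 3 untreated arrays. Over all genes the same value was -0.05 to -0.01 with 4EGI-1. The groups of 3 arrays did not overlap in 57 members that were lower and 3 that were higher. Of all genes, 20.8% were lower and 17.0% higher without overlap. In the other 17 members the arrays of the groups overlapped.

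Most decreases were modest. Of the 43 members that fell, 14 did so by 0.5 or more on the log2 scale and 1, Mrpl42, by more than 2-fold. The smallest decrease that passed was that of Mrpl35 (-0.22, adjusted p = 0.0448). Its call was lost after quantile normalization (0.0524), centring on other genes (0.0615) or array weighting (0.0547). It was also lost on leaving out any single array but untreated replicate 3, with adjusted p-values of 0.0703 to 0.128. The differences had an SD of 0.27 over the members, while the median standard error (SE) of a single difference was 0.07.

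**Figure D1:**
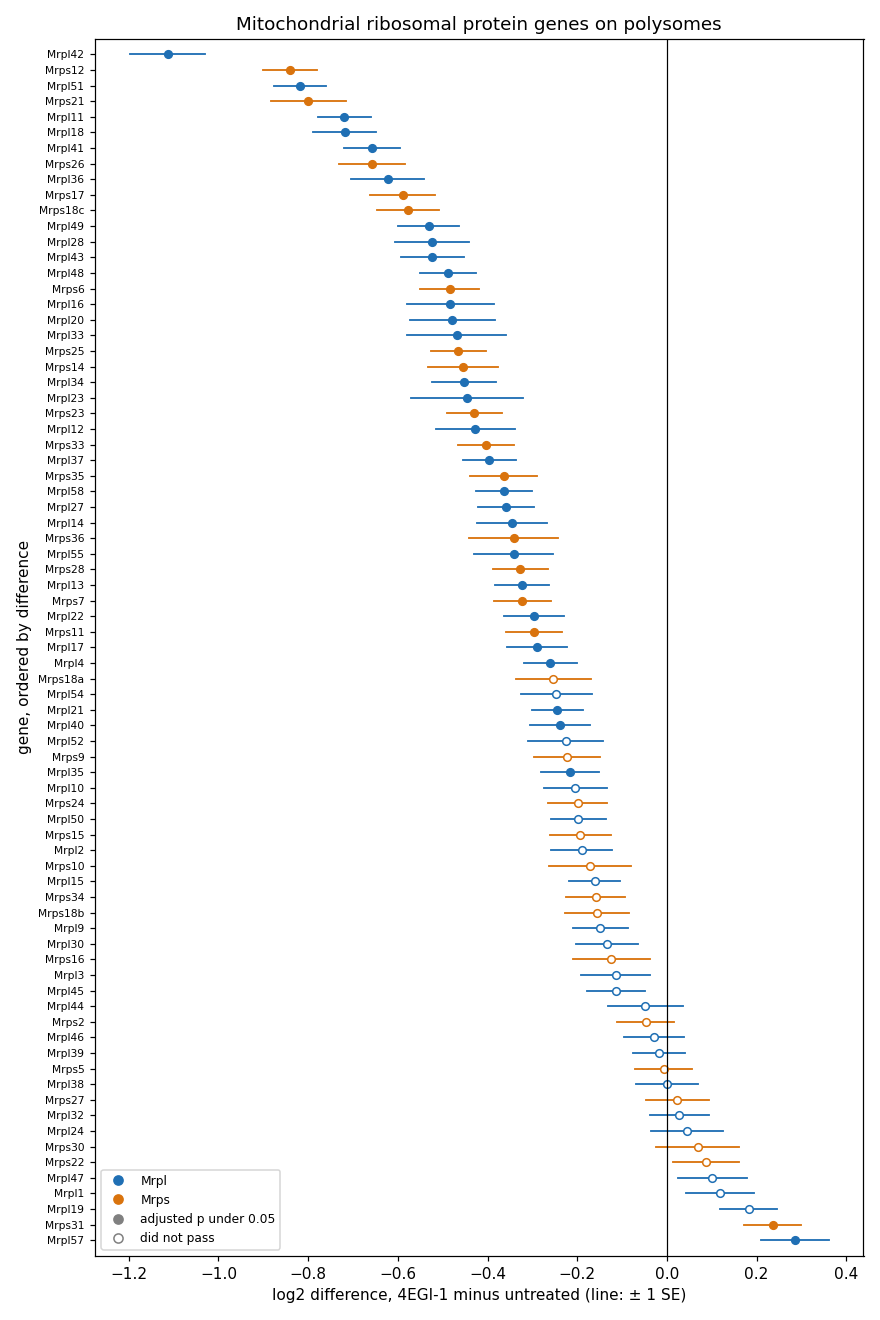
The log2 difference (4EGI-1 minus untreated) of each of the 77 genes is plotted on the horizontal axis, ordered from the largest decrease; lines are ± 1 SE from limma, colours mark Mrpl and Mrps, and filled points passed at an adjusted p under 0.05. Differences run from -1.11 for Mrpl42 to 0.29 for Mrpl57, and Mrpl and Mrps genes are mixed along the whole range.

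Mrpl and Mrps genes were then set side by side. Of 48 Mrpl genes 28 fell, 1 rose and 19 did not pass, with a median of -0.27. Of 29 Mrps genes 15 fell, 1 rose and 13 did not pass, with a median of -0.30. Both subunits were lower in all 3 treated arrays, with array medians of -0.24 to -0.29 for Mrpl and of -0.24 to -0.30 for Mrps. Symbols do not fully follow the structure of the ribosome, since the proteins of Mrps18a and Mrps30 sit in the large subunit and that of Mrps36 is known as part of the 2-oxoglutarate dehydrogenase complex. With these placed by structure, 28 of 50 large-subunit genes and 14 of 26 small-subunit genes fell, with medians of -0.26 and -0.31. The difference between the subunits was not tested, since genes are not replicates.

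Members were also divided by whether they were listed here with a bacterial counterpart. Of 46 genes listed with a counterpart in the bacterial ribosome 26 fell, with a median of -0.27, and 20 did not pass. None of the 46 rose in limma, and at an unadjusted p under 0.05 there was 1 higher and 34 lower. Of 31 genes listed without such a counterpart, Mrps36 among them, 17 fell, 2 rose and 12 did not pass, with a median of -0.33. Mrps28 and Mrpl55 were listed there, although a bacterial counterpart has been proposed for each. Mrps28 (-0.33) is itself the median of the 31, so the order of the medians depends on such placements. With the mean of probe sets the order was the other way, at -0.26 without and -0.27 with a counterpart. Both members that rose belong to the second group.

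**Figure D2:**
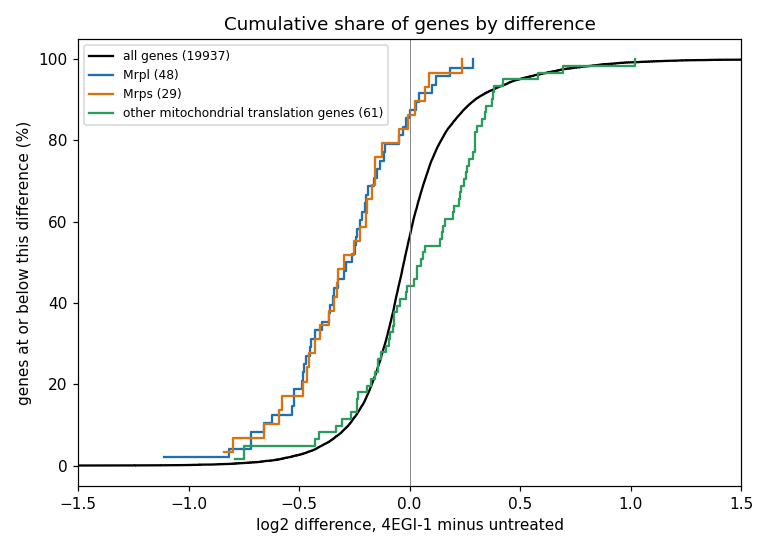
The cumulative share of genes (vertical axis, percent) is plotted against the log2 difference (4EGI-1 minus untreated). Lines are Mrpl genes, Mrps genes, all 19937 genes and 61 other genes, labelled as of mitochondrial translation. The 61 also cover mitochondrial transcription and RNA stability. The lines of Mrpl (median -0.27) and Mrps (median -0.30) run close together to the left of the line of all genes (median -0.03). The 61 other genes have a median of 0.05.

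The largest decrease was in Mrpl42, whose protein is a large-subunit component found only in mitochondrial ribosomes. Its log2 signal was 10.55, 10.46 and 10.56 in the untreated arrays and 9.49, 9.50 and 9.24 with 4EGI-1. All 3 treated arrays were thus about 1 unit or more below all untreated arrays. The difference was -1.11 ± 0.08 (SE; adjusted p = 0.000105), which leaves 46.2% of the control signal.

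Mrps12 encodes the counterpart of bacterial protein S12, which lies at the decoding centre of the small subunit. The signal was 9.45, 9.57 and 9.51 in untreated arrays and 8.65, 8.67 and 8.68 in treated arrays. The treated arrays lay within 0.03 of each other in these rounded values and well below the untreated ones. The log2 difference of Mrps12 was -0.84 ± 0.06 (SE; adjusted p = 8.7e-05).

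Mrpl51, a large-subunit gene without a bacterial counterpart, had signals of 11.39, 11.40 and 11.35 in untreated arrays and 10.60, 10.56 and 10.52 with 4EGI-1. It fell by 0.82 ± 0.06 (SE; adjusted p = 8.26e-05), the smallest adjusted p among the members. A second, dimmer probe set of Mrpl51 had a mean of 8.48 in untreated and 8.11 in treated arrays and a smaller difference of -0.36 ± 0.09. Its adjusted p in limma was 0.0218 over all probe sets. Both were lower, and the size depended on the probe set. Which of them reads Mrpl51 at its own place in the genome was not examined.

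Mrps21 encodes the counterpart of S21, which lines the path of the mRNA. Its untreated arrays were spread more widely, at 10.94, 11.14 and 11.24, while the treated arrays were at 10.26, 10.34 and 10.32. The groups did not overlap, and the difference was -0.80 ± 0.08 (SE; adjusted p = 0.000372).

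The large-subunit genes Mrpl11 and Mrpl18 followed with nearly equal decreases. Mrpl11 encodes the counterpart of L11 at the base of the stalk that binds translation factors, and fell from 11.12 ± 0.03 to 10.40 ± 0.04 (SD, n = 3 each). Mrpl18, the counterpart of the 5S rRNA-binding protein L18, had the highest control signal of the members and fell from 12.26 ± 0.08 to 11.54 ± 0.07 (SD, n = 3 each). In the RefSeq table Mrpl18 overlaps the chaperonin gene Tcp1, whose difference was -0.03 ± 0.06 (SE; adjusted p = 0.806). The untreated arrays of Mrpl18 were at 12.18, 12.34 and 12.27 and the treated arrays at 11.56, 11.61 and 11.47, again without overlap.

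The 10 largest decreases also held Mrpl41, Mrps26, Mrpl36 and Mrps17, with differences of -0.66, -0.66, -0.62 and -0.59. Mrpl41 and Mrps26 have no bacterial counterpart, and Mrpl36 and Mrps17 are counterparts of L36 and S17. Mrpl41 had a dimmer second probe set, which gave -0.54 ± 0.06 (SE) against -0.66 ± 0.06. Of the 10, 6 are Mrpl and 4 Mrps, and 6 have a bacterial counterpart.

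**Figure D3:**
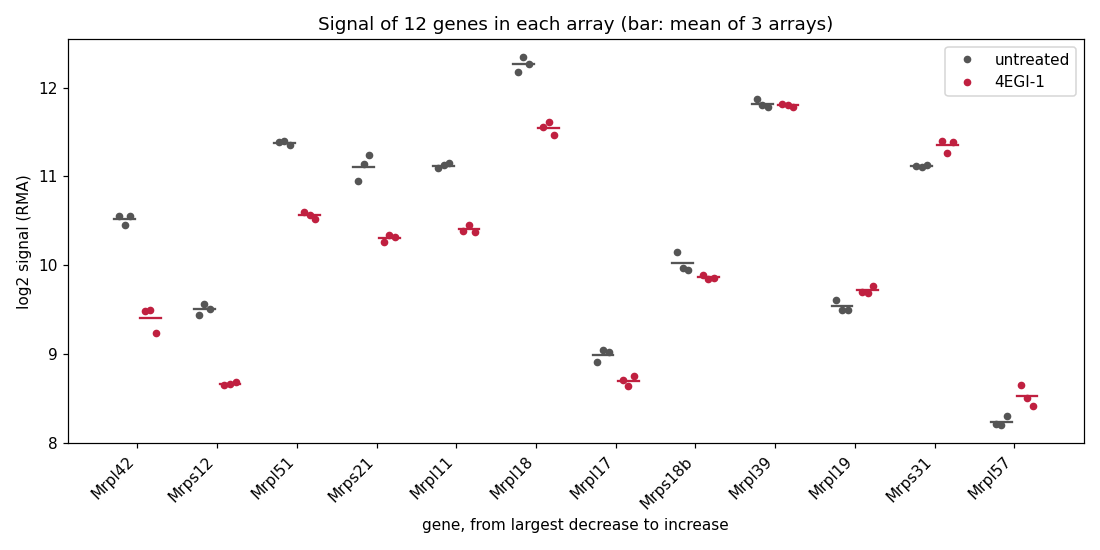
The log2 signal (vertical axis) of 12 genes is plotted for each array, with untreated arrays in grey, 4EGI-1 arrays in red and bars at the mean of 3 arrays. From Mrpl42 to Mrps18b all red points lie below all grey points; for Mrpl39 they coincide, and for Mrpl19, Mrps31 and Mrpl57 all red points lie above.

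Members were next grouped by the place of their proteins in the ribosome. Of 4 genes of the peptidyl transferase centre, where peptide bonds form, Mrpl16 and Mrpl27 fell, while Mrpl2 (-0.19) and Mrpl3 (-0.11) did not pass. Mrpl16 was at 9.40, 9.16 and 9.11 untreated and at 8.87, 8.62 and 8.75 with 4EGI-1. Both probe sets of Mrpl27 were lower, with differences of -0.36 and -0.42, and RefSeq names a pseudogene of it.

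Around the exit tunnel, through which the new protein leaves, 4 of 7 genes fell and 3 did not pass, with a median of -0.26. Mrpl17, whose difference was the median of all 77 members, fell by 0.29 ± 0.07 (SE; adjusted p = 0.0156). Its signal was 8.91, 9.04 and 9.02 untreated and 8.71, 8.64 and 8.75 treated. The call of Mrpl17 was lost without untreated replicate 2 (adjusted p = 0.0577), untreated replicate 3 (0.0585) or 4EGI-1 replicate 2 (0.0519). Mrpl4 (-0.26), Mrpl22 (-0.30) and Mrpl23 (-0.45) also fell. The call was lost for Mrpl4 without untreated replicate 2 (adjusted p = 0.0511) and for Mrpl22 without untreated replicate 3 (0.0525). For Mrpl23 it was lost without replicate 1 or 2 of the untreated group (0.0854 and 0.103) or replicate 1 or 3 of the treated group (0.0691 and 0.0916). The 3 that did not pass were Mrpl45 (-0.11), which holds the ribosome at the inner membrane, Mrpl24 (0.04) and Mrpl47 (0.10).

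At the stalks Mrpl11 and Mrpl12 fell, while Mrpl10 (-0.20, adjusted p = 0.0721) and Mrpl1 (0.12, adjusted p = 0.334) did not pass. Mrpl12, the counterpart of the stalk protein L7/L12, fell from 9.18 ± 0.13 to 8.75 ± 0.11 (SD, n = 3 each; adjusted p = 0.00916). Mrpl10 encodes the protein that holds Mrpl12 in the stalk, and its treated arrays (9.49, 9.41 and 9.38) were all below its untreated arrays (9.56, 9.73 and 9.60).

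Of 6 genes of the central protuberance 4 fell, namely Mrpl18, Mrpl40, Mrpl48 and Mrpl58. RefSeq names a pseudogene of Mrpl48, and whether its only probe set reads that copy was not examined. The call of Mrpl40 (-0.24, adjusted p = 0.0359) was lost on leaving out any single array but replicate 2 of the treated group, with adjusted p-values of 0.0505 to 0.114. Mrpl58 encodes ICT1, a peptidyl-tRNA hydrolase that became part of the ribosome. It was at 10.16, 10.27 and 10.18 in untreated and 9.84, 9.82 and 9.86 in treated arrays, and fell by 0.36 ± 0.06 (SE; adjusted p = 0.00355). Mrpl38 (0.00) and Mrpl46 (-0.03) of the same site did not pass.

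Along the path of the mRNA through the small subunit 5 of 7 genes fell, namely Mrps7, Mrps11, Mrps12, Mrps18c and Mrps21. Mrps24 (-0.20) and Mrps5 (-0.01) did not pass. The 3 related genes Mrps18a, Mrps18b and Mrps18c, all counterparts of S18, differed in size. Mrps18c fell by 0.58 ± 0.07 (SE; adjusted p = 0.000671), from 10.13, 10.12 and 10.30 to 9.61, 9.57 and 9.63. Mrps18a had a difference of -0.25 ± 0.08 (adjusted p = 0.0645) and Mrps18b of -0.16 ± 0.07 (adjusted p = 0.174), and neither passed, although in both all treated arrays were below all untreated ones. Mrps18a passed in 4 alternatives: among genes that reached the table's median (adjusted p = 0.0177) or its 25th percentile (0.0399), with a trended robust prior (0.00898) and without untreated replicate 1 (0.0143).

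Mrps36, whose protein is known from the 2-oxoglutarate dehydrogenase complex, fell by 0.34 ± 0.10 (SE; adjusted p = 0.0397). Its untreated arrays were at 10.60, 10.74 and 10.94 and its treated arrays at 10.31, 10.53 and 10.41. The call did not hold after quantile normalization (adjusted p = 0.0505) or without untreated replicate 2 (0.0867), untreated replicate 3 (0.112), 4EGI-1 replicate 1 (0.118) or 4EGI-1 replicate 3 (0.0910). A second probe set differed by -0.49 ± 0.12, and RefSeq names 3 pseudogenes of Mrps36. Mrpl20, the dimmest member, fell from 8.15 ± 0.15 to 7.67 ± 0.12 (SD, n = 3 each; adjusted p = 0.00788).

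Of the 77 members, 34 did not fall. Mrpl57 and Mrps31 rose, Mrpl19 was higher in all treated arrays without passing, 14 were lower in all treated arrays without passing, and 17 had groups that overlapped. The 14 were Mrps18a, Mrpl54, Mrpl52, Mrps9, Mrpl10, Mrps24, Mrpl50, Mrps15, Mrpl2, Mrpl15, Mrps34, Mrps18b, Mrpl9 and Mrpl45, with differences of -0.25 to -0.11. A p that misses the threshold does not show that these genes were unaffected.

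Mrpl57 encodes a small large-subunit protein without a bacterial counterpart. It rose from 8.21, 8.20 and 8.30 to 8.65, 8.50 and 8.42, so that all treated arrays lay above all untreated ones. The difference was 0.29 ± 0.08 (SE; adjusted p = 0.0274). Its adjusted p was 0.0846 without untreated replicate 1 and 0.0864 without untreated replicate 2. Leaving out 4EGI-1 replicate 1 gave 0.0780, and leaving out replicate 2 of that group gave 0.0593. In the RefSeq table Mrpl57 overlaps Ska3, a kinetochore gene, which went the other way (-0.31 ± 0.09, adjusted p = 0.0357).

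Mrps31, a small-subunit gene without a bacterial counterpart, rose from 11.12, 11.10 and 11.13 to 11.40, 11.27 and 11.39. The groups did not overlap, and the difference was 0.24 ± 0.06 (SE; adjusted p = 0.0286). The adjusted p was 0.0736, 0.0815 and 0.0744 without untreated replicates 1, 2 and 3, and 0.0877 and 0.0899 without 4EGI-1 replicates 1 and 3. Neither increase passed in all fits, and in each of the fits named the direction was kept.

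Mrpl19, the counterpart of L19, was at 9.61, 9.50 and 9.50 untreated and at 9.70, 9.69 and 9.77 treated. Its difference of 0.18 ± 0.06 (SE; adjusted p = 0.0764) did not pass, but did among genes that reached the table's median (adjusted p = 0.0235) and with a trended robust prior (0.0214). In the RefSeq table Mrpl19 overlaps Gcfc2, which went the same way by more (0.60 ± 0.07, adjusted p = 0.000503 in limma). Whether the probe set of Mrpl19 also reads Gcfc2 was not tested.

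The 17 members whose groups overlapped were Mrps10, Mrpl30, Mrps16, Mrpl3, Mrpl44, Mrps2, Mrpl46, Mrpl39, Mrps5, Mrpl38, Mrps27, Mrpl32, Mrpl24, Mrps30, Mrps22, Mrpl47 and Mrpl1. Their differences ran from -0.17 to 0.12. Mrpl39 was among the brightest members, at 11.87, 11.81 and 11.78 untreated and 11.82, 11.81 and 11.78 treated. Its difference was -0.02, with a 95% interval of -0.15 to 0.12, which does not reach the median decrease of the members. The intervals of Mrps5 (-0.15 to 0.14), Mrpl38 (-0.16 to 0.16) and Mrps27 (-0.14 to 0.18) did not reach it either. Among the 17, only those of Mrps10, Mrpl30, Mrps16 and Mrpl3 reached that median (-0.289). Their lower ends were -0.381, -0.294, -0.322 and -0.293. Mrps27 encodes a pentatricopeptide repeat protein.

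Among the rest with a difference above 0, Mrpl32 (0.03), Mrpl24 (0.04), Mrps30 (0.07), Mrps22 (0.09), Mrpl47 (0.10) and Mrpl1 (0.12) did not pass. Mrpl1 encodes the counterpart of L1, the protein of the stalk by which used tRNA leaves. The treated arrays of Mrpl1 were at 10.19, 10.04 and 10.15 and its untreated arrays at 10.12, 9.92 and 9.99. Mrpl47 depended on the probe set: the brighter one (mean 9.41 untreated) gave 0.10 ± 0.08, and the dimmer one (7.70) gave -0.31 ± 0.06 (SE; adjusted p = 0.00851 over all probe sets).

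There were 8 members with several probe sets: Mrpl23, Mrpl27, Mrpl41, Mrpl47, Mrpl51, Mrps5, Mrps33 and Mrps36. In Mrps5 the probe sets gave -0.01 and 0.00. In Mrps33 the bright probe set (12.03 untreated) gave -0.40 ± 0.06 and the dim one (7.95) -0.12 ± 0.10. The dim one did not pass in limma (adjusted p = 0.464 over all probe sets), while Mrps33 is counted here as fallen. The brighter probe set of a gene can read processed copies elsewhere in the genome, and probe positions were not used here. RefSeq names pseudogenes of 4 members, Mrpl23, Mrpl27, Mrpl48 and Mrps36, and all 4 members fell. Among the 69 members with 1 probe set, which include Mrpl48, 37 fell and 2 rose. Another gene overlaps 24 of the 77 members in the RefSeq table, and 14 of these fell, as did 29 of the 53 others.

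By untreated signal, 20 of the 26 brightest members fell, with a median of -0.36. Of the 26 next in signal 10 fell (median -0.18), and of the 25 dimmest 13 (median -0.29). Across the 77 members, Pearson's r between untreated signal and difference was -0.25 and Spearman's rho -0.22. Across the 11028 genes that reached the table's median these values were -0.13 and -0.14. The untreated signal is part of both measures, members share their arrays, and these values are descriptions.

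Members with the CCGGAAG letters fell in 17 of 25 cases and rose in 1, with a median of -0.36. Those without them fell in 22 of 43 and rose in 1, with a median of -0.22. Over all tested genes the medians with and without the letters were -0.02 and -0.03. Of all tested genes with the letters 17.8% fell and 18.1% rose, so that calls in both directions were about equal. Whether the letters bear on the decrease was not tested. Of the 4 members with the TISU core, Mrpl37 (-0.40) and Mrpl35 (-0.22, its call lost in the fits named above) fell, and Mrps18a (-0.25) and Mrps27 (0.02) did not pass. The palindromic site of the factor NRF1 was found in 3 members, Mrpl9 (-0.15), Mrpl32 (0.03) and Mrpl39 (-0.02), with a median of -0.02, and these 3 did not pass. It occurred in 4.41% of the members with a window, 0.971% of all windows, 1.61% of the tested genes with a window and 2.44% of the brighter genes.

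The start of a terminal oligopyrimidine mRNA was taken as a C at the annotated start followed by 4 bases each C or T. It was found in 0 of 68 members and in 2.51% of all windows, 2.75% of tested genes and 2.95% of the brighter genes. With shares this small, 0 of 68 does not set the members apart. Annotated starts can miss the start used in these cells. An ATG lay within the first 50 bases from the annotated start in 37 members (54.4%). The share was 44.3% of all windows, 42.8% of the tested genes with a window and 37.5% of the brighter genes. These 37 members had a median of -0.23 with 18 that fell, and the other 31 a median of -0.43 with 21 that fell. Of all tested genes with such an ATG 10.78% fell and 11.15% rose. Whether such an ATG is the start codon was not examined.

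Other genes of mitochondrial gene expression were taken from 4 lists, and more of them rose than fell. The lists cover other ribosomal proteins, translation factors, ribosome assembly, and mitochondrial transcription and RNA stability. Of 63 genes on 4 lists 61 were measured, of which 12 fell, 19 rose and 30 did not pass, with a median of 0.05. The share that fell was 19.7%, beside 11.5% of all genes and 18.9% of those that reached the table's median. The share that rose was 31.1%, beside 11.5% and 17.3%. The count that fell was 7 without untreated replicate 1, untreated replicate 3, 4EGI-1 replicate 1 or 4EGI-1 replicate 3, and 6 with 4EGI-1 replicate 2 left out. The count that rose was 11 without untreated replicate 3 or 4EGI-1 replicate 3, and 12 without replicate 1 of the treated group. Leaving out any single array also lowered the counts over all 19937 genes, to 1663 to 1836 lower and 1857 to 2082 higher.

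Of 4 measured ribosomal proteins with other symbols, 1 fell and 3 did not pass. Chchd1, a small-subunit protein gene, fell from 10.11 ± 0.15 to 9.36 ± 0.03 (SD, n = 3 each; adjusted p = 0.000520). Dap3 (-0.06) and Gadd45gip1 (-0.10) did not pass.

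Among 13 mitochondrial translation factors 5 rose, 2 fell and 6 did not pass, with a median of 0.14. Gfm2, the factor that recycles mitochondrial ribosomes, rose from 8.44, 8.46 and 8.60 to 9.18, 9.26 and 9.15, a difference of 0.70 ± 0.07 (SE; adjusted p = 0.000302). The release factor gene Mtrf1 rose by 0.42 and the initiation factor gene Mtif2 by 0.29. Mtfmt, which formylates the initiator tRNA, fell by 0.43.

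Of 27 genes of ribosome assembly and rRNA modification 8 rose, 4 fell and 15 did not pass, with a median of 0.07. The rRNA methyltransferase gene Tfb1m rose by 0.33, Ngrn by 0.35 and the putative rRNA-processing gene Ybey by 0.37, while Malsu1, an assembly factor of the large subunit, fell by 0.41. Ybey had an adjusted p of 0.0160, which was 0.0567 without untreated replicate 2, 0.0601 without untreated replicate 3. It was 0.0521 when 4EGI-1 replicate 1 was left out and 0.0544 when replicate 3 of that group was.

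The list of mitochondrial transcription and RNA stability also holds genes of mitochondrial DNA replication, such as Polg and Twnk. Of its 17 genes 6 rose, 5 fell and 6 did not pass. Lrpprc and Slirp, whose proteins form a complex that stabilises mitochondrial mRNAs, went opposite ways. Lrpprc was at 9.20, 9.26 and 9.29 untreated and at 10.31, 10.17 and 10.32 treated, and rose by 1.02 ± 0.07 (SE; adjusted p = 6.99e-05). Slirp was at 10.91, 11.12 and 11.17 untreated and at 10.17, 10.40 and 10.26 treated, and fell by 0.79 ± 0.09 (adjusted p = 0.000564). The poly(A) polymerase gene Mtpap rose by 0.58 and the RNA-degrading Pnpt1 by 0.38.

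**Figure D4:**
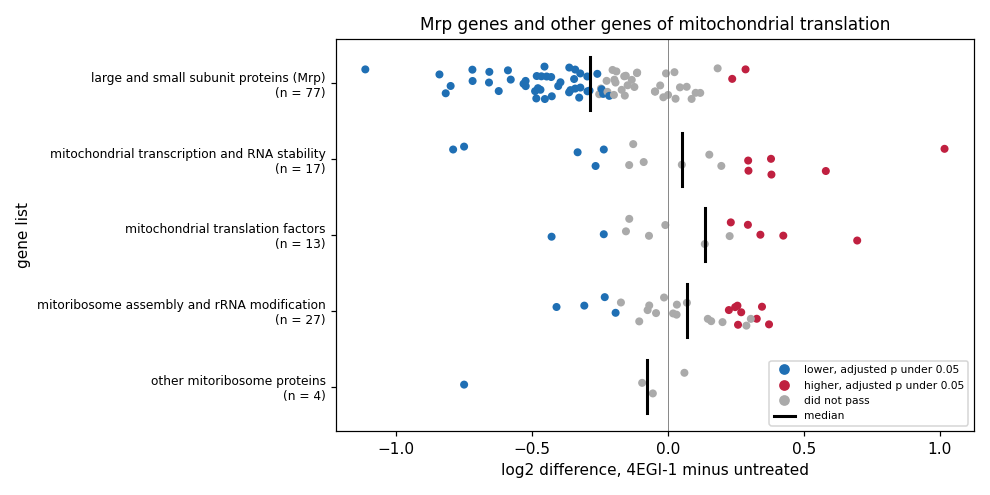
Each point is a gene, placed on the horizontal axis by its log2 difference (4EGI-1 minus untreated) and coloured by whether it was lower, higher or did not pass at an adjusted p under 0.05; rows are the 77 Mrp genes and 4 lists of other genes, with vertical bars at the medians and vertical jitter for visibility. The Mrp row is centred at -0.29, and the rows of translation factors (median 0.14) and assembly factors (0.07) are centred above 0.

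Beside these, the 78 measured nuclear subunits of oxidative phosphorylation, matched by symbol pattern, had 54 lower (69.2%), 2 higher (2.56%) and a median of -0.30. The 60 measured proteins of the cytosolic ribosome had 20 lower (33.3%) and 0 higher in limma, with a median of -0.15. At an unadjusted p under 0.05 these counts were 29 and 0. Of all genes 11.5% were lower and 11.5% higher, and of those that reached the table's median 18.9% and 17.3%. Median untreated signal was 10.55 and 12.11 in these sets, beside 9.54 in the members. Both patterns also took in dim genes, with lowest untreated means of 3.89 and 4.06. The lists were not tested against each other.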

How the data were processed

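The authors deposited log2 signals of probe sets, obtained by RMA per the submitters' processing notes. RMA gives arrays one distribution, so a shift of all mRNAs would not show. Its software version is not given in the sources used here. Of 34760 probe sets, 22961 are in the platform annotation, 21640 with 1 symbol, 1321 with several and 0 with none, and 11799 are not listed. Symbols were updated by Entrez identifier (21553 matched) through RefSeq's GRCm38.p6 table, and the brightest probe set per symbol over the 6 arrays was kept (19937 genes). Differences over all genes come from limma 3.58.1 (lmFit, eBayes; R 4.3.3), two-sided, with no covariate and no filter. Adjusted p-values are Benjamini-Hochberg values over all genes, with a threshold of 0.05, and SE is the moderated standard error on 8.15 degrees of freedom. The fit was tested on simulated data.

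The design text calls the samples biological replicates. The members and lists were chosen with earlier results of these data known. Named were the 10 largest decreases and every increase that passed without overlap, members above 0, 7 fixed members, the brightest, the dimmest and the one at the median. Also named were up to 3 genes per list by adjusted p and up to 3 that rose. Other genes were named after their values were seen. Sites in the ribosome, the overlap with other genes and the ATG count were added after the values were seen. Protein lengths, a planned grouping, were not analysed here. Replicate numbers did not pair the samples. Alternatives were the replicate block, filters on low signal, probe set choice, normalization, the variance prior, array weights, a threshold of 0.01, symbols without update, subunits by structure, and leaving out each sample. Promoter sequences are RefSeq's.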

Additional observations from a re-analysis of the deposited data

How the results depend on the processing

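All alternatives kept the members' median below 0, between -0.31 and -0.25, and gave 31 to 53 members lower. The 53 came from the filter at the table's median, with 2806 of 11028 genes lower, and from the trended robust prior, with 2806 of 19937. Counts are of 77 members, save for 85 when every probe set was tested and 68 without members with several probe sets or a named pseudogene. Of the 43 members called lower, the alternatives on the same genes kept between 31 and 43, and none changed direction. Both increases were less stable. With the replicate block limma gave 0 members higher, against 3 at an unadjusted p under 0.05, and 40 lower; adjusted p was 0.0517 for Mrps31, 0.0572 for Mrpl57, 0.0609 for Mrpl35 and 0.0522 for Mrpl40. At an adjusted p under 0.01 limma gave 0 members higher and 31 lower, with 1248 of all genes lower and 1488 higher. Among the genes of the 4 lists 6 were lower and 9 higher. That threshold is stricter by construction. Same-numbered arrays of the 2 groups correlated at 0.06, 0.11 and -0.02 in their deviations from the group means, so the numbers were not taken as pairs, and replicate 3 did not correlate best with its own number. With every probe set tested the Mrpl median was -0.31. With the mean of probe sets the medians were -0.26 for all members, -0.26 for Mrps and -0.26 for members without a bacterial counterpart. Without the 9 members that had several probe sets or a named pseudogene, chosen after seeing the data, they were -0.25 for all members, -0.25 for Mrpl and -0.23 for members without a bacterial counterpart. The dimmer probe set of Mrpl47 reversed its direction (-0.31); the cause was not tested.

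Leaving out each array in turn gave 35 to 42 members lower and 0 to 1 higher (2 to 3 at an unadjusted p under 0.05). Over all 19937 genes it gave 1663 to 1836 lower and 1857 to 2082 higher. Medians were -0.31 to -0.27 for all members, -0.31 to -0.26 for Mrpl, -0.33 to -0.25 for Mrps, -0.31 to -0.25 with and -0.33 to -0.27 without a bacterial counterpart. Among the genes of the 4 lists 6 to 8 were lower and 11 to 17 higher. Among the 32 members that did not pass, the 95% interval of the difference reached a median of 0.160 to either side.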

Other observations

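The probe set shared by Mrpl53 and Ccdc142, which names neither gene alone, was at 7.15, 7.21 and 7.14 in untreated arrays and at 6.99, 7.11 and 7.05 with 4EGI-1. All treated arrays were below all untreated ones, by 0.11 on average.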
